A study of Homo sapiens with 4 samples.

Results

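The MCM helicase and origin licensing factors were examined as a group of 10 genes, which are MCM2, MCM3, MCM4, MCM5, MCM6, MCM7, MCM10, CDC6, CDT1 and GMNN. The rule names them by function, and they were chosen with earlier results of these data known. All 10 were found among the 18567 genes of the expression table, and all 10 passed the filter of at least 1 TPM in at least 2 samples. RNA had been sequenced from 4 samples of Kasumi-1, a long-established cell line of acute myeloid leukemia (AML) with the RUNX1-RUNX1T1 fusion. The controls, called NC, were 2 samples, and the other 2, called sh-ANP32B, carried a short hairpin RNA against ANP32B. ANP32B encodes an acidic nuclear phosphoprotein that binds histones. NC is untreated and free of any hairpin by its labels. The methods of the study, however, describe a control hairpin and selection of infected cells with puromycin, so effects of infection and selection cannot be told apart from those of the knockdown. The labels do not give which hairpin was used, and they do not say whether the 2 samples of a group were grown as separate cultures, so the p-values measure only the spread between these samples. Values are TPM, a measure of relative transcript abundance that corrects for the length of a gene and for the total of its sample, and sequencing depth cannot be recovered from it.

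Origin licensing prepares DNA for replication before S phase begins. The origin recognition complex marks the origins, and CDC6 and CDT1 then load the ring formed by MCM2, MCM3, MCM4, MCM5, MCM6 and MCM7, which is the motor of the replicative helicase. MCM10 acts later, when the loaded helicase is switched on, and geminin, the product of GMNN, binds CDT1 after licensing so that no origin is used again in the same cycle. In leukemia cells, as in other dividing cells, these genes are expressed in proliferating cells and many of them are known targets of E2F transcription factors.

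The target and the markers of the labelled cells were read first. ANP32B itself had 384 and 392 TPM in NC against 51.8 and 41.2 TPM after knockdown. Among markers of a myeloid line with the RUNX1-RUNX1T1 fusion, CD33, RUNX1, RUNX1T1 and SPI1 were between 15.6 and 364 TPM over the 4 samples, and KIT was low, between 1.55 and 3.41 TPM. CD34 and MPO were not analysed here, so the check of the line rests on the 5 markers named, of which KIT was near the filter on low values. These levels do not settle the identity of the line, which was taken from the labels. Among markers of lymphoid, erythroid, platelet, fibroblast and epithelial cells, PAX5 was between 1.51 and 3.70 TPM. Mitochondrial genes held between 8.43% and 13.1% of the TPM, the lowest share being that of sh-ANP32B replicate 2. The sh-ANP32B samples differed from each other with the GC content of the transcripts (Spearman rho 0.577 across genes), and this is taken up beside the genes it touches.

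Transcripts of the licensing genes were lower after knockdown of ANP32B. With each gene tested by limma on log2(TPM + 1) and adjusted over all 16817 genes tested by the Benjamini-Hochberg method, 6 of the 10 genes fell with an adjusted p under 0.05, namely MCM2, MCM3, MCM4, MCM6, MCM7 and CDC6, and 0 rose. Among all genes tested 1.18% were called lower by this rule, and 3.32% in either direction. In all 10 genes both sh-ANP32B values lay under both NC values, which was so for 21.4% of all genes tested. Both sh-ANP32B values lay over both NC values in 0 of the 10 genes, beside 33.2% of all genes tested. The median log2 fold change of the 10 genes was -0.93, beside 0.08 over all genes tested, of which 42.1% were below 0, and the median level in sh-ANP32B was 52.5% of that in NC. The criterion of the study takes an unadjusted p under 0.05 and a log2 fold change over 0.5 in size. With p from limma in that criterion, 9 of the 10 genes were lower, beside 6.55% of all genes tested. In RNA from whole cultures, fewer cycling cells and less licensing RNA in each cell cannot be told apart.

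The calls depended on which library was left out and on the model of the variance. Without NC replicate 1, and likewise without NC replicate 2, 1 of the 10 genes, MCM3, had an adjusted p under 0.05, where 0.476% and 0.351% of all genes were called lower. Without sh-ANP32B replicate 1 all 10 were called, and without sh-ANP32B replicate 2 there were 9, GMNN being the one not called, where 9.68% and 8.47% of all genes were called lower. In these fits the lone sample of a group is assumed to vary like the pair of the other group. The fits without NC replicate 1 and without NC replicate 2 also took the variance of every gene from the abundance trend alone. The log2 fold change was below 0 for every one of the 10 genes in each of these 4 fits. When replicate numbers entered as a block, 8 of the 10 were called, where 2.92% of all genes were called lower. That fit took the variance of every gene from the abundance trend alone, as if it were known. The calls also rested on the abundance trend of the limma fit, without which 0 of the 10 genes and 0 of all genes tested had an adjusted p under 0.05, while 9 of the 10 and 3701 of all genes had an unadjusted limma p under 0.05.

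**Figure D1:**
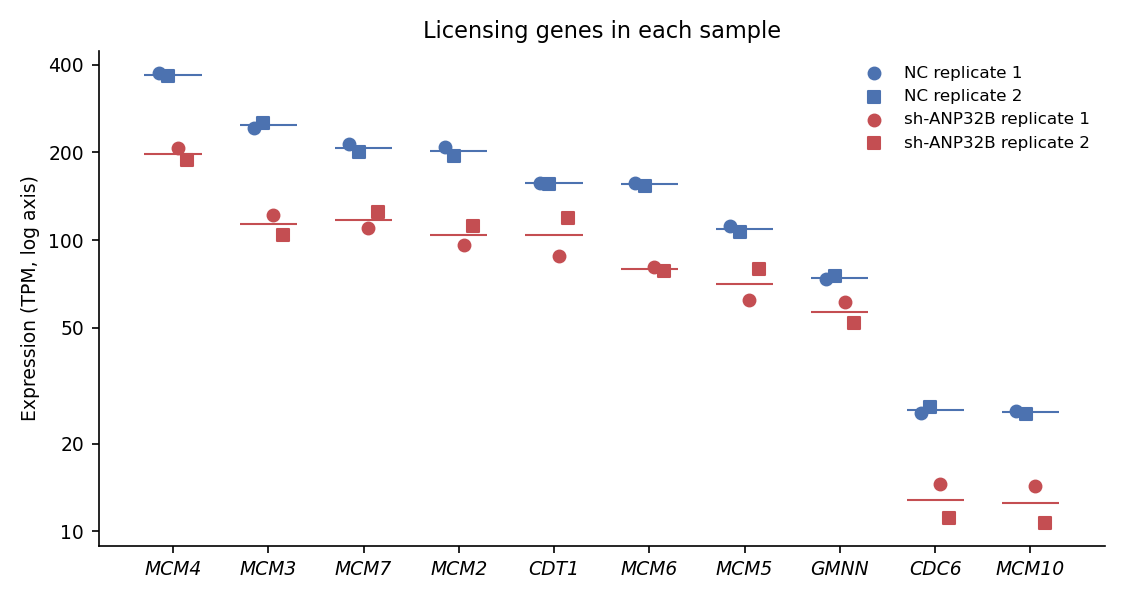
Expression of the 10 licensing genes in TPM, on a log axis, in the 2 NC samples (blue) and the 2 sh-ANP32B samples (red), with circles for replicate 1, squares for replicate 2 and lines for the group means. Both red points lie under both blue points in each gene, and the replicates lie farther apart in sh-ANP32B than in NC for most genes.

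Within the helicase ring, MCM3 (ENSG00000112118; hg38 chromosome 6, 52264014 to 52284881, minus strand) had the lowest log2 fold change. It had 243 and 252 TPM in NC (replicates 1 and 2, here and throughout) against 122 and 104 TPM after knockdown. Means were 248 ± 6.20 TPM and 113 ± 12.7 TPM (SD, n = 2 each), so that 45.8% of the NC level was left. Its log2 fold change, -1.12 ± 0.135 (SE), had a limma adjusted p of 0.0270, and both sh-ANP32B samples were far below the NC samples.

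MCM6 (ENSG00000076003; chromosome 2, 135839626 to 135876443, minus strand), another subunit of the ring, had 157 and 154 TPM in NC against 80.8 and 78.5 TPM after knockdown. Its replicates were the closest of the 10 genes in sh-ANP32B, with a mean of 79.7 ± 1.56 TPM there and 155 ± 2.28 TPM in NC (SD, n = 2 each). Its level was 51.3% of NC, a log2 difference of -0.95 ± 0.124 (SE) with a limma adjusted p of 0.0304. MCM2 (ENSG00000073111; chromosome 3, 127598410 to 127622436, plus strand) had 208 and 195 TPM in NC against 96.4 and 112 TPM after knockdown. This is 51.7% of NC, a log2 difference of -0.95 ± 0.136 (SE) with a limma adjusted p of 0.0348, with both groups well apart.

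MCM4 (ENSG00000104738; chromosome 8, 47960185 to 47978160, plus strand) was the most abundant of the 10 in every sample, with 374 and 366 TPM in NC against 206 and 188 TPM after knockdown. Its level fell to 53.4% of NC, a log2 difference of -0.90 ± 0.122 (SE) with a limma adjusted p of 0.0323. MCM7 (ENSG00000166508; chromosome 7, 100092233 to 100101940, minus strand) had 213 and 201 TPM in NC against 110.3 and 124 TPM after knockdown. It fell to 56.7% of NC, a log2 difference of -0.82 ± 0.131 (SE) with a limma adjusted p of 0.0393. MCM5 (ENSG00000100297; chromosome 22, 35400134 to 35425431, plus strand) was the subunit of the ring that did not pass the test. It had 111 and 107 TPM in NC against 62.1 and 79.2 TPM after knockdown, or 64.7% of NC, a log2 difference of -0.63 ± 0.158 (SE) with a limma adjusted p of 0.0787. Its groups did not overlap, although its sh-ANP32B replicates differed by 0.35 on the log2 scale.

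Among the loading factors, CDC6 (ENSG00000094804; chromosome 17, 40287879 to 40304657, plus strand), an ATPase that works with the origin recognition complex, had 25.5 and 26.7 TPM in NC against 14.6 and 11.2 TPM after knockdown. It fell to 49.3% of NC, a log2 difference of -0.98 ± 0.191 (SE) with a limma adjusted p of 0.0483. Of the 6 called genes it was the closest to the threshold, and its adjusted p was 0.0522 with a pseudocount of 0.1 and 0.0512 with no filter on low values. CDT1 (ENSG00000167513; chromosome 16, 88803789 to 88809258, plus strand), which escorts the ring to the origin, had 157 and 156 TPM in NC against 88.1 and 119 TPM after knockdown. The NC values were nearly equal and the sh-ANP32B values were the most unequal in TPM of the 10 genes, with a mean of 104 ± 22.1 TPM (SD, n = 2). Its log2 fold change was -0.61 (SE 0.170) and did not pass the test, with a limma adjusted p of 0.0991.

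MCM10 (ENSG00000065328; chromosome 10, 13161558 to 13211110, plus strand), the activation factor, had 25.9 and 25.4 TPM in NC against 14.4 and 10.7 TPM after knockdown, or 48.8% of NC. Its log2 fold change of -0.99 (SE 0.196) was larger in size than that of CDC6, yet its limma adjusted p of 0.0503 was just over the threshold. CDC6 and MCM10 had nearly the same level in every sample, with a ratio of MCM10 to CDC6 of 1.02, 0.950, 0.985 and 0.957 in NC replicates 1 and 2 and sh-ANP32B replicates 1 and 2. GMNN (ENSG00000112312; chromosome 6, 24774931 to 24786099, plus strand), which encodes the inhibitor of CDT1, showed the smallest difference. It had 73.6 and 75.0 TPM in NC against 61.1 and 51.9 TPM after knockdown, or 76.0% of NC, a log2 difference of -0.39 ± 0.145 (SE) with a limma adjusted p of 0.169. The groups of GMNN did not overlap, and its difference did not pass the test.

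**Figure D2:**
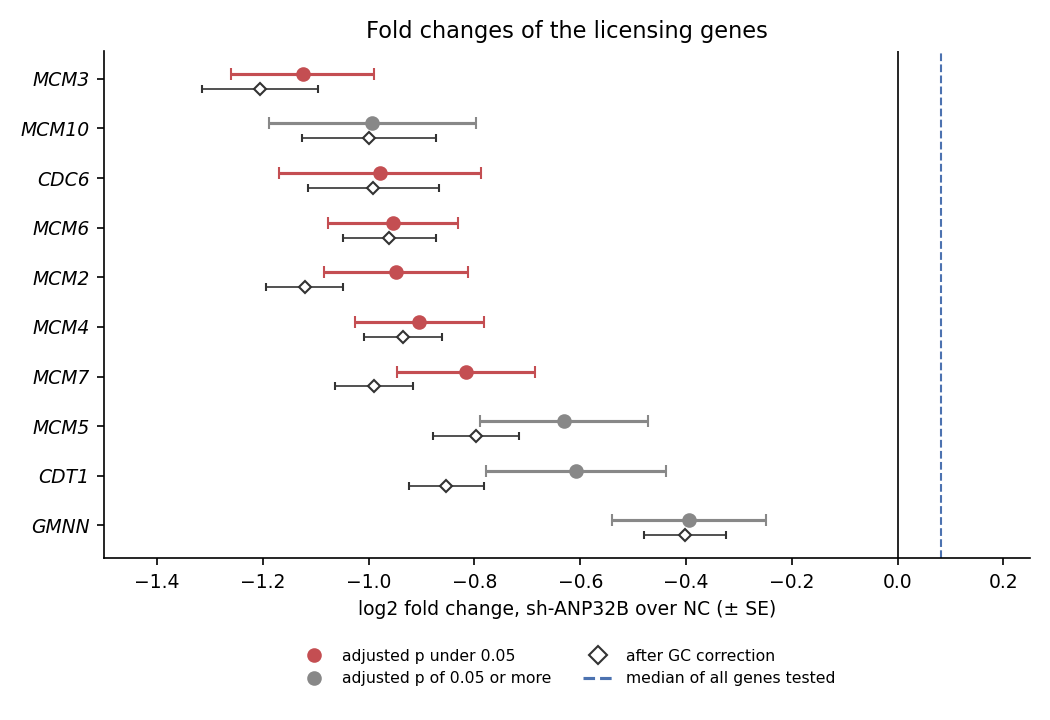
Log2 fold change of sh-ANP32B over NC with its SE for each licensing gene (filled circles, red with an adjusted p under 0.05 and grey otherwise) and the same after GC correction (open diamonds). The circles run from -1.12 for MCM3 to -0.39 for GMNN, all left of 0 and of the dashed line at 0.08, the median of all genes tested.

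The replicates of sh-ANP32B split the licensing genes by GC content. The 4 genes whose longest transcript held at least 55% GC, a limit set after the values were seen, were MCM2, MCM5, MCM7 and CDT1, with 57.0% to 64.3% GC. All 4 were higher in sh-ANP32B replicate 2 than in replicate 1, by 0.17 to 0.43 on the log2 scale. The other 6, with 43.2% to 51.6% GC, were all lower in replicate 2, with log2 differences from -0.40 for MCM10 to -0.04 for MCM6. The same direction was seen over all genes tested, where the median difference was -0.23 in the 3257 genes between 40% and 45% GC and 0.38 in the 1500 genes between 60% and 65% GC. Between the NC replicates no licensing gene differed by more than 0.10 in size, and MCM2 showed that difference.

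MCM3 departed from its GC bin, at -0.23 where the median of 2536 genes between 50% and 55% GC was 0.09. When the trend with GC was removed in each sample by a loess fit, the differences between the sh-ANP32B replicates were between -0.07 and 0.12 for the 4 GC-rich genes and between -0.29 and 0.16 for the other 6. All 10 genes then had an adjusted p under 0.05, where 8.65% of the 15427 genes with a GC value were called lower. The log2 fold changes of CDT1 and MCM5 became -0.85 and -0.80, those of MCM2 and MCM7 became -1.12 and -0.99, and that of GMNN was -0.40. The order of the genes among themselves therefore depended on this correction for CDT1, MCM2, MCM5 and MCM7, whereas GMNN had the smallest difference with and without it.

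**Figure D3:**
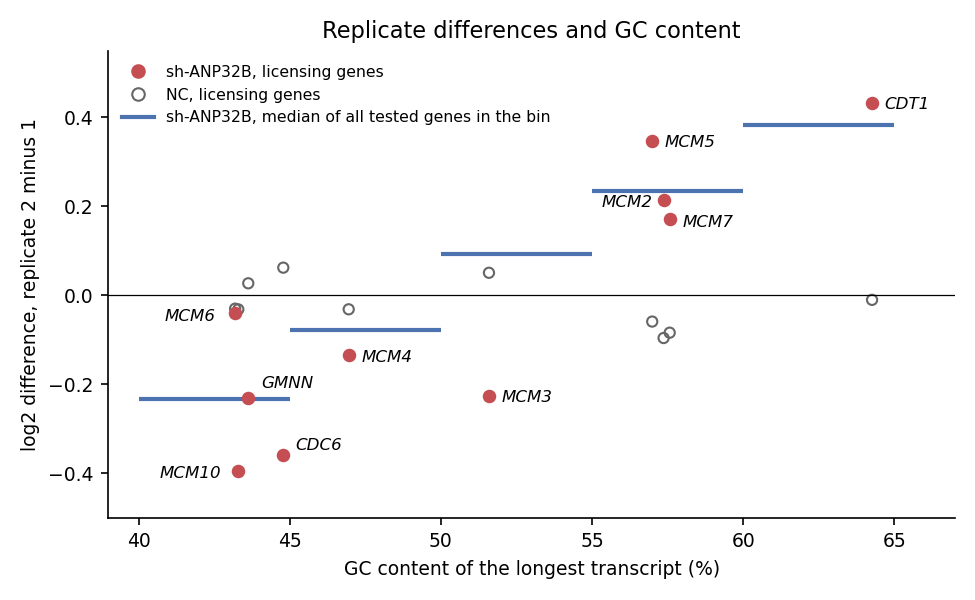
Difference between replicates 2 and 1 on the log2 scale against the GC content of the longest transcript, for the licensing genes in sh-ANP32B (red) and in NC (open circles). Blue bars give the median over all tested genes in each GC bin in sh-ANP32B, which rises from -0.23 to 0.38, and the 4 licensing genes with at least 55% GC are the ones above 0.

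As TPM is per length, levels can be compared between genes. In NC the order from high to low was MCM4, MCM3, MCM7, MCM2, CDT1, MCM6, MCM5, GMNN, CDC6 and MCM10. The ranges of the 2 replicates overlapped between MCM7 and MCM2, between CDT1 and MCM6 and between CDC6 and MCM10, so these neighbours did not differ beyond their spread. In sh-ANP32B MCM4 was still first, and MCM7 stood ahead of MCM3. The ranges of MCM7, MCM3, MCM2 and CDT1 overlapped from each to the next, as did those of MCM6 and MCM5 and those of CDC6 and MCM10.

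The transcripts of the 6 ring subunits summed to 1307 and 1274 TPM in NC and to 678 and 687 TPM in sh-ANP32B, or 52.9% of NC. This sum was closer between the sh-ANP32B replicates than most of its parts. The proteins are used in equal numbers in the ring, whereas the most abundant of the 6 transcripts, MCM4, exceeded the least abundant by 3.35 and 3.42 times in NC and by 3.33 and 2.39 times in sh-ANP32B. The least abundant was MCM5, except in sh-ANP32B replicate 2, where it was MCM6. A share within a sample does not depend on how that sample was scaled, but it was not corrected for the GC trend described above. MCM5 made up 8.53% and 8.40% of the sum in NC and 9.15% and 11.5% in sh-ANP32B, above both NC samples. MCM3 made up 18.6% and 19.8% in NC and 18.0% and 15.2% in sh-ANP32B, below both. The share of MCM6 was also below both NC samples, by a narrow margin, with 12.0% and 12.1% in NC and 11.9% and 11.4% in sh-ANP32B. The shares of MCM2, MCM4 and MCM7 overlapped between the groups. These shares were not tested, since 0.33 is the smallest two-sided p of an exact permutation test at this number of samples. With GC correction the log2 fold change of MCM6 was -0.96, between -0.93 for MCM4 and -0.99 for MCM7. Those of MCM5 and MCM3 were then -0.80 and -1.21, the highest and the lowest of the ring.

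**Figure D4:**
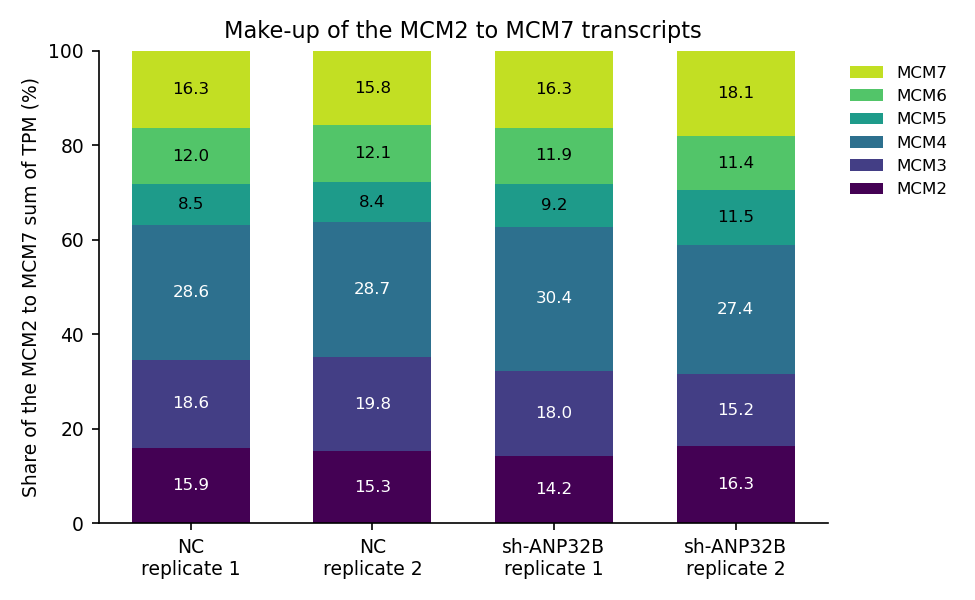
Share of each of MCM2 to MCM7 in their summed TPM, in percent, in each of the 4 samples, without GC correction. MCM4 is the largest share throughout, between 27.4% and 30.4%, and the share of MCM5 is larger in both sh-ANP32B samples than in either NC sample.

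Geminin holds CDT1 in check, so their transcripts were compared within each sample. The ratio of CDT1 to GMNN was 2.14 and 2.08 in NC and 1.44 and 2.30 in sh-ANP32B. The NC values lay between the sh-ANP32B values, and no difference was seen beyond the spread. None of the ratios given here was corrected for GC, and CDT1 held 64.3% GC where GMNN held 43.6%. With GC correction the log2 fold changes were -0.85 ± 0.0716 (SE) for CDT1 and -0.40 ± 0.0777 (SE) for GMNN. The ratio of the corrected values was not tested. The ring subunits were lower relative to GMNN in both sh-ANP32B samples, as their sum was 17.7 and 17.0 times GMNN in NC and 11.1 and 13.2 times in sh-ANP32B. The ratio of CDC6 to ORC1, the subunit of the origin recognition complex whose level varies most with the cell cycle, was 0.286 and 0.294 in NC and 0.270 and 0.224 in sh-ANP32B.

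Promoter sequences were taken from RefSeq (GRCh38.p14), 250 bases before to 50 bases after the annotated start, and 8 of the 10 genes had such a window. For MCM4 and MCM5 none was used here. E2F-type words were searched as any of the following on both strands, the word TTCCCGC, the word TTCGCGC, the word TTGCCGC, and the word TTGGCGC. A word can share bases with another word on the opposite strand. They were found in 6 of the 8 windows, those of MCM2, MCM3, MCM6, MCM7, CDC6 and CDT1, beside 13.0% of all 35097 windows and 20.8% of the 9959 tested genes with a window. The first listed window was used where a gene had several. GMNN had no such word in its first window and 1 of its 2 windows held one. The CCAAT box, searched as CCAAT on both strands, was found in 5 of 8 (34.6% of all windows, 36.5% of tested genes with a window). The E-box CACGTG, which MYC can bind, was found in 3 of 8, namely MCM2, MCM7 and GMNN (7.25% of all windows, 10.7% of tested genes). TTTGAA, a core of the cell cycle homology region of late cell cycle genes, was found in 0 of 8 (15.2% of all windows, 9.74% of tested genes). A match is a description of the letters and not evidence of binding. The 160 bases before the start are shown for 4 genes, with E2F-type words and CCAAT boxes in capitals on either strand. MCM6 is shown for its overlapping E2F-type words, CDT1 for its pair of E2F-type words and no CCAAT box, CDC6 for its 3 CCAAT boxes, and MCM10 as a gene with no E2F-type word in its window.
MCM6 promoter, chr2:135876444-135876603, minus strand: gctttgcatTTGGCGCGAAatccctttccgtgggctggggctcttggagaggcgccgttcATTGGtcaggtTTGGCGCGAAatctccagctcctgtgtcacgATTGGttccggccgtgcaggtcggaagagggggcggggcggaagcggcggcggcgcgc
CDT1 promoter, chr16:88803629-88803788, plus strand: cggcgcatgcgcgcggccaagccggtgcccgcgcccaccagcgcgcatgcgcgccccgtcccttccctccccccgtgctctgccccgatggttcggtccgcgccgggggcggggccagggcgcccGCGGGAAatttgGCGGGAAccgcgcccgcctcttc
CDC6 promoter, chr17:40287719-40287878, plus strand: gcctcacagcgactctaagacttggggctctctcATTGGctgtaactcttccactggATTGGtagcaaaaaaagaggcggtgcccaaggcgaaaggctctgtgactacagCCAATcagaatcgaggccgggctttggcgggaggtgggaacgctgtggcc
MCM10 promoter, chr10:13161398-13161557, plus strand: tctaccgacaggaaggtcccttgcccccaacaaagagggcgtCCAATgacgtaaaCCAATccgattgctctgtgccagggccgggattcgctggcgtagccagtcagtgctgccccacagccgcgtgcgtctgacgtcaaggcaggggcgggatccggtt

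In MCM6 the capitals TTGGCGCGAA, which join TTGGCGC and the reverse of TTCGCGC, begin 151 and 89 bases before the start. In CDT1 the E2F-type words begin 35 and 23 bases before it. CDC6 held its E2F-type word after the start, from base 9 to base 15, outside the stretch shown. Only the words listed were searched, so any other form of E2F site would stand in lower case in these stretches. The 6 genes with an E2F-type word in the first listed window had log2 fold changes from -1.12 for MCM3 to -0.61 for CDT1. Those without one in that window were MCM10 at -0.99 and GMNN at -0.39, and the other window of GMNN held one.

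Of the 10 genes, 3 start within 1000 bases of a gene on the opposite strand, a search made after the values were seen. MCM4 starts 7 bases from PRKDC, which encodes the catalytic subunit of the DNA-dependent protein kinase. PRKDC had 178 and 196 TPM in NC against 124 and 108 TPM after knockdown, with a log2 fold change of -0.69 (SE 0.137) and a limma adjusted p of 0.0507, so both genes of this pair had lower values. MCM2 starts 143 bases from TPRA1, which had 59.7 and 59.9 TPM in NC against 74.1 and 119 TPM after knockdown. Its values were above those of NC, opposite to MCM2, with a log2 fold change of 0.64 (SE 0.224) that did not pass the test (limma adjusted p 0.152).

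MCM7 overlaps the start of AP4M1, a subunit of an adaptor complex, by 392 bases. AP4M1 had 13.0 and 12.7 TPM in NC against 11.5 and 15.1 TPM after knockdown, and its groups overlapped (log2 fold change 0.03, SE 0.203, limma adjusted p 0.951). Whether the authors' counting used strand was not given in the sources used here, so reads from the shared bases cannot be told apart. MCM7 also holds the hairpins of MIR25, MIR93 and MIR106B, whose rows were between 0 and 13.1 TPM with adjusted p from 0.380 to 0.690, and which may share reads with MCM7. Among genes of the table with a position in the annotation used here, no other overlapped a licensing gene. Genes without a position were left out of the searches for overlaps and for nearby starts.

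Other genes of the pathway were described by lists written with earlier results of these data known. For the counts of these lists, 1.18% of all genes tested were called lower and 6.55% were lower by the study's criterion. Both sh-ANP32B values lay under both NC values in 21.4% of all genes tested. Of 53 genes outside the 10, 52 were tested, 7 fell with an adjusted p under 0.05 and 0 rose, and the median log2 fold change was -0.43. The called genes were CLSPN, CDC45, DTL, PCNA, SKP2, GINS1 and ORC1. Without NC replicate 1 or without NC replicate 2 the number was 1, and without sh-ANP32B replicates 1 and 2 in turn it was 33 and 25.

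In the origin recognition complex 1 of 7 genes was called, ORC1, with 89.1 and 90.8 TPM in NC against 54.1 and 49.7 TPM after knockdown (log2 fold change -0.78, SE 0.134, limma adjusted p 0.0431). Values in the complex lay on both sides of 0. ORC4, a core subunit, had 13.6 and 14.6 TPM in NC against 20.2 and 19.5 TPM after knockdown, a log2 fold change of 0.47 that did not pass the test (limma adjusted p 0.162). The list median was -0.41.

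Genes of helicase activation and origin firing had a median of -0.58, with 2 of 13 called. In all 13 sh-ANP32B lay under NC without overlap, beside 21.4% of all genes tested. CDC45, which joins the ring to form the active helicase, fell from 66.3 and 67.6 TPM in NC to 35.5 and 31.2 TPM in sh-ANP32B (log2 fold change -0.99, SE 0.145, limma adjusted p 0.0351). GINS1, a subunit of the GINS complex that joins with it, fell from 54.6 and 47.5 TPM to 27.4 and 27.8 TPM (log2 fold change -0.86, SE 0.151, limma adjusted p 0.0440). The value nearest 0 was that of RECQL4, a helicase needed for firing, at -0.32 (limma adjusted p 0.245). Among 5 fork protection genes CLSPN, an adaptor of the replication checkpoint, was called at -1.23 (limma adjusted p 0.0406), lower in fold change than any of the 10 licensing genes. CHTF18 was the highest at -0.25, with groups that overlapped (limma adjusted p 0.585).

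CDT1 is destroyed in S phase by a ubiquitin ligase that is guided by DTL and by PCNA on DNA, and by a ligase that contains SKP2. Of 12 genes in this list 3 were called, and they were these 3. PCNA, the sliding clamp, fell from 312 and 302 TPM in NC to 162 and 154 TPM in sh-ANP32B (log2 fold change -0.95, SE 0.120, limma adjusted p 0.0299). DTL fell from 63.6 and 63.3 TPM to 35.8 and 28.0 TPM (log2 fold change -0.98, limma adjusted p 0.0430), and SKP2 fell by 0.86 on the log2 scale (limma adjusted p 0.0371). The scaffold of the first ligase, CUL4A, had the highest value of the list, at 0.22 (limma adjusted p 0.330).

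Relatives and partners of the MCM proteins outside the replicative ring had 0 of 7 genes called by limma, 3 of them lower under the study's criterion, with a median of -0.38. MCMDC2 was not analysed here. The lowest was HROB, which works with the MCM8 and MCM9 helicase in repair, at -0.89 (limma adjusted p 0.0833), and the highest was MCM3AP, at 0.03 (limma adjusted p 0.918). MCM8 had 30.1 and 32.6 TPM in NC against 20.4 and 14.3 TPM after knockdown, whereas MCM9 had 7.59 and 8.63 TPM against 6.85 and 7.46 TPM. Helicase unloading genes had 0 of 8 called, 2 of them lower under the study's criterion, and the median nearest 0, at -0.17. Their lowest and highest were TRAIP, a ubiquitin ligase, at -0.60 (limma adjusted p 0.0760) and UBXN7 at 0.07 (limma adjusted p 0.847).

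**Figure D5:**
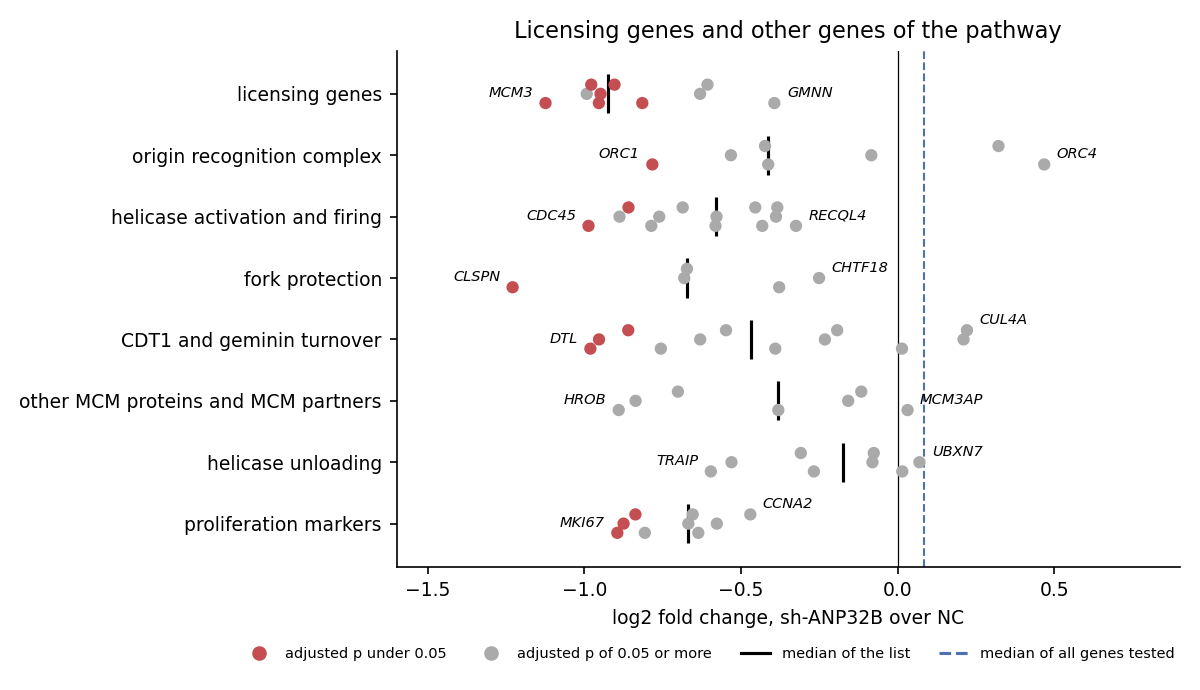
Log2 fold change of sh-ANP32B over NC for the 10 licensing genes and the genes of each other list, one point a gene, red with an adjusted p under 0.05, with a black bar at the median of each list. The median of the licensing genes is -0.93, and the medians of the other lists run from -0.67 to -0.17, with the lowest and highest gene of each list named.

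Proliferation markers were read beside the licensing genes. Of 9 such markers 3 were called lower, MKI67, TYMS and BUB1, beside 1.18% of all genes tested. In all 9 sh-ANP32B lay under NC without overlap, beside 21.4% of all genes tested. The median log2 fold change of the markers was -0.67. MKI67, the Ki-67 antigen of cycling cells, had 144 and 151 TPM in NC against 84.0 and 74.0 TPM after knockdown (log2 fold change -0.90, limma adjusted p 0.0354). TYMS and BUB1 had log2 fold changes of -0.88 and -0.84 (limma adjusted p 0.0431 and 0.0440), and the highest value was that of CCNA2 at -0.47 (limma adjusted p 0.0918). The part of the share of cycling cells in the differences of the licensing genes was not tested. MYC, which the study followed, fell by 1.18 on the log2 scale (limma adjusted p 0.0261), near that of MCM3.

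The genes outside the 10 whose 4 values, each less the mean of its gene, lay nearest to the median profile of the licensing genes included NOLC1, LYAR, C5orf34 and SKP2. Their Euclidean distances on the log2(TPM + 1) scale were between 0.0400 and 0.0805 over the 4 samples, and those of the 10 genes themselves were between 0.0773 for MCM6 and 0.529 for GMNN. NOLC1, a nucleolar phosphoprotein, had 137 and 136 TPM in NC and 71.6 TPM in each sh-ANP32B sample. LYAR, a nucleolar zinc finger protein, had 54.3 and 51.1 TPM in NC against 27.6 and 28.5 TPM after knockdown. With 4 samples in 2 groups, such likeness rests mainly on the size of the group difference.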

How the data were processed

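RNA of 4 Kasumi-1 samples was analysed, 2 in each group, grouped by their titles. The authors aligned reads to hg38 with HISAT2 2.0.5 and deposited TPM values for 18567 Ensembl genes. The unit was identified from the values, which sum to between 997812 and 998314 in a sample. The program and annotation behind the TPM values were not given in the sources used here. Depth is unknown, so no counting interval was computed, and the number of samples limits the precision. Symbols were found for 16986 genes in GENCODE v44 (hg38), which also gave positions and GC content.

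Genes reaching 1 TPM in 2 or more samples were tested by limma 3.58.1 (R 4.3.3) with an abundance trend on log2(TPM + 1), a scale that understates the change of low genes. P-values were two-sided and adjusted over all genes by the Benjamini-Hochberg method. The authors used DESeq2 on counts, which was not applied to these TPM values. The members and lists were chosen with earlier results of these data known. Named genes were the 10 members, ANP32B, MYC, every called gene and the lowest and highest of each list, and the 5 protein-coding genes of at least 10 TPM nearest in profile. Of these 5 genes 1 is not reported here, nor is 1 cell type marker. Other pathway genes and neighbours were named after their values were seen. Alternatives were other scalings, filters, a pseudocount of 0.1, no trend, GC correction, a replicate block and leaving out each replicate. Other steps used pandas 2.3.3 and numpy 2.4.6 in Python 3.11.15, with figures by matplotlib 3.10.9.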

Additional observations from a re-analysis of the deposited data

How the results depend on the processing

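All 10 genes kept a log2 fold change below 0 in all 14 alternative fits. The number called lower, 6 as reported, was 10 with GC correction, 0 with no abundance trend, where 9 of the 10 had an unadjusted limma p under 0.05, and 0 at an adjusted p under 0.01. It was 9 at an adjusted p under 0.1, and the share of all genes at 0.1 or at 0.01 was not computed here. Under the other scalings, filters and pseudocount it was 5 to 7, where 167 to 298 of all genes tested were called lower. The fits with each replicate left out are described above. The number past the study's criterion, 9 as reported, was 9 in every alternative fit that kept all samples, and the same or lower with a replicate left out. The share of all genes past this criterion was computed only for the reported fit, at 6.55%. The counts of the alternative fits therefore have no share to be read against. The median log2 fold change, -0.93 as reported, was -1.02 with median-of-ratios scaling, and -0.93 to -0.83 with a replicate left out, the latter without sh-ANP32B replicate 2.

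With the replicate number as a block 8 of the 10 genes were called, MCM5 and MCM10 being added. With the block and GC correction 9 were called, where 1000 of 15427 genes were called lower. The block fit without GC correction had infinite prior degrees of freedom, so it treated the variance of the abundance trend as known. The same held for the fits without NC replicate 1 and without NC replicate 2. In the block fit the SE of MCM2 rose from 0.136 to 0.213 while its limma adjusted p fell from 0.0348 to 0.00052. The replicate numbers come from the titles. The deviations of same-numbered samples had a Pearson r of -0.0925 across genes. Whether these samples shared anything beyond the number cannot be told from this, as replicate differences followed GC content in opposite directions. The Spearman rho of replicate 2 minus 1 with GC was -0.206 in NC and 0.577 in sh-ANP32B. The pathway genes outside the 10 called lower, 7 as reported, were 16 with the replicate block, 27 with the block and GC correction, 28 with GC correction, 0 with no abundance trend, and 1 to 33 with a replicate left out. Over all genes 559 were called, 199 lower and 360 higher. There were 1473 with the replicate block, 1853 with the block and GC correction, 2557 with GC correction (1335 lower, 1222 higher), 0 with no abundance trend (3701 at an unadjusted limma p under 0.05), and 273 to 4079 with a replicate left out. The split was 294 lower to 236 higher when scaled by median of ratios, and 212 to 214 when quantile normalized. The cause of these shifts was not tested. Without GC correction, the difference in log2 ratio of CDT1 to GMNN was -0.21 by the group means. It ran from -0.55 to 0.12 with a replicate left out, so its direction in the uncorrected values rests on sh-ANP32B replicate 1. Unknown depth and 2 samples a group limit every value.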
